A study of Mus musculus with 16 samples.

Results

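Liver RNA of mice exposed to overlap hypoxia was compared with that of mice exposed to sustained hypoxia, 4 libraries against 4 of the 16 in the series, over every gene that had enough counts. Overlap hypoxia combines intermittent and sustained hypoxia per the series title, so on that reading both groups received the sustained exposure and the comparison asks what the intermittent exposure adds to it. All 16 libraries came from wild type C57BL/6J mice aged 12 weeks, and the other 8 came from 4 room air and 4 intermittent hypoxia samples. The labels state neither the oxygen levels nor the pattern, length and hour of the exposures, nor the sex of the animals. The labels number the libraries of a group as replicates without saying that they came from separate animals, so each p-value reflects only how far these libraries spread, which may be technical.

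Cells sense falling oxygen through hydroxylases that mark the hypoxia-inducible factors (HIF) for destruction, and when oxygen is low these factors switch on genes of glycolysis, red cell formation and vessel growth. The liver is where blood glucose is made and released, where cholesterol, bile acids, urea and most plasma proteins are produced, and where resident macrophages, the Kupffer cells, line the sinusoids. Repeated falls and recoveries of oxygen are used to model sleep apnoea, and steady low oxygen to model chronic lung disease or altitude.

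The extraction text in the labels names retina while the tissue label is liver, so markers were checked. The summed level of 12 hepatocyte markers, among them albumin, was 88864 to 106480 CPM (counts relative to library size, scaled between libraries by the trimmed mean of M values) in the 8 libraries, and Rcvrn, which encodes the retinal protein recoverin, was at 0 in all 8. The 8 libraries held 10940275 to 64789635 counts, the shallowest being overlap replicate 3. Their content differed. The share of counts in mitochondrially encoded genes was 1.43%, 1.6%, 1.55% and 1.73% in the sustained libraries and 5.0%, 2.54%, 7.17% and 2.77% in the overlap libraries, with no overlap between the groups (exact two-sided permutation p = 0.0286, the smallest that 4 against 4 allows; 0.114 after adjustment over 8 measures). The ribosomal RNA share was 1.55%, 1.57%, 2.76% and 2.77% in the sustained libraries and 9.83%, 2.53%, 9.23% and 16.8% in the overlap libraries, where replicate 2 lay inside the sustained range (exact permutation p = 0.0857, adjusted 0.229). In each library the Spearman correlation across genes between exon length and the level relative to the mean of the 16 libraries was also computed. It was −0.31 to −0.27 in the sustained libraries, and 0.30, −0.19, 0.20 and 0.08 in the overlap libraries (exact permutation p = 0.0286, adjusted 0.114). In the ribosomal RNA share and the length correlation, overlap replicate 2 thus stood apart from the other 3 overlap libraries, nearer to the sustained group. In the mitochondrial share it lay close to overlap replicate 4. Calls without overlap replicate 2 are given beside the gene lists they change. That fit had the most calls of those with 1 library left out, while none were made without overlap replicate 1 or 3.

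**Figure D1:**
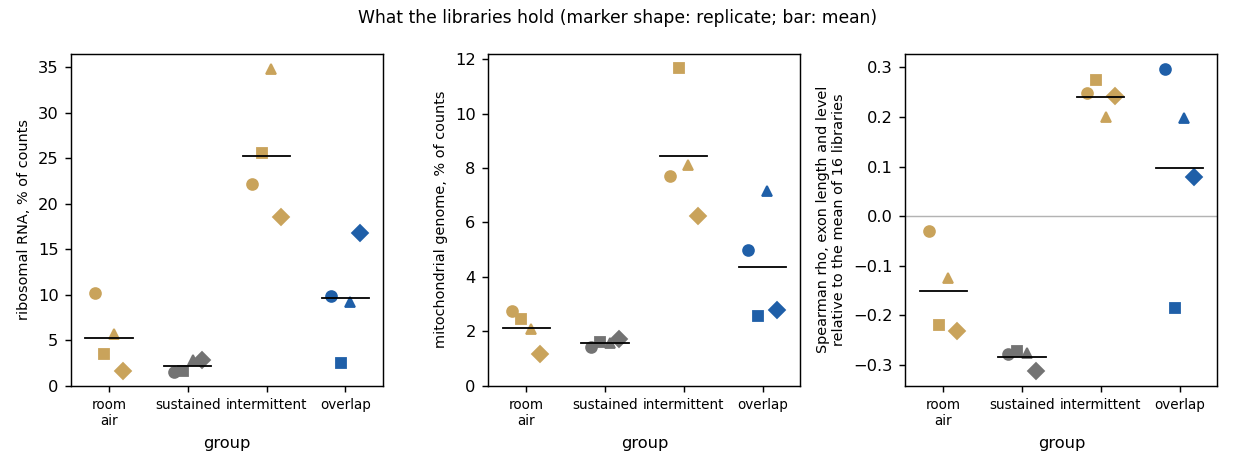
Share of counts in ribosomal RNA, share in mitochondrially encoded genes, and the correlation across genes between exon length and relative level, for the 16 libraries by group. Points are libraries, marker shapes are replicate numbers and bars are group means. Overlap replicate 2 (square) lies at 2.53% ribosomal RNA and at −0.19 for length, next to the sustained libraries.

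Of 14553 genes tested, 24 (0.165%) passed at an adjusted p under 0.05 in edgeR's quasi-likelihood test with Benjamini-Hochberg adjustment, called in what follows. Of these, 20 (0.137%) were higher and 4 (0.0275%) lower in overlap hypoxia. Among those that rose were Kmt2a, Kdm7a, Spen, Lcor, Ccnt2, Luc7l2 and Srsf11, which act on chromatin, transcription and splicing, and G6pc, the enzyme of the last step of glucose release. Those that fell were Rpl9, Rdh7, Drg1 and Usf1. In all 24 the 4 overlap libraries lay outside the range of the 4 sustained libraries, which was so for 5.23% (higher) and 5.58% (lower) of all genes tested. The count sat at a steep edge: 882 genes had an adjusted p under 0.1 and 2978 (20.5%) an unadjusted p under 0.05, while the called genes lay between 0.0109 and 0.0495. DESeq2 called 896 genes (6.16%) and limma-voom 1224 (8.41%), all 24 among them in each case.

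Single libraries and settings moved that count over its whole range. It was 1547 without overlap replicate 2 (843 higher and 704 lower), all 24 included. List counts from that fit, given below, stand beside these numbers over all genes. The count was 0 without overlap replicate 1, overlap replicate 3, sustained replicate 1 or sustained replicate 4. It was also 0 when each library was given offsets for gene length and GC content, 0 with the ribosomal RNA share as a covariate, and 2 when only the 8 compared libraries were fitted, of which 1 was among the 24. In these fits the direction of all 24 genes stayed as it was. The named changes are therefore described below by their values in each library.

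G6pc, glucose-6-phosphatase, frees glucose from glucose-6-phosphate at the end of both gluconeogenesis and glycogen breakdown. It spans chr11:101367561-101377903 on the plus strand (GRCm38, GENCODE M21). Its level was 27.5, 31, 58.7 and 32.3 CPM in the 4 sustained libraries and 100.2, 62.7, 136 and 69.9 CPM in the 4 overlap libraries. Each overlap library was above each sustained library, the closest being overlap replicate 2 and sustained replicate 3. The log2 change was 1.3 (SE 0.24, edgeR adjusted p = 0.0466), with group means of 37.4 ± 14.4 and 92.2 ± 33.4 CPM (SD, n = 4). The room air and intermittent groups stood higher still, at 144 and 151 CPM, so that the overlap mean lay between the sustained and the room air means. Since G6pc was the called gene with a direct part in glucose output, its promoter is shown from RefSeq (GRCm38.p6, chr11:101367466-101367765, plus strand, 250 bases before to 50 after the start). Capitals mark TTACGTAA, which resembles a cAMP response element, from −162 to −155 and the TATA box TATAAA from −29 to −24.

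G6pc promoter: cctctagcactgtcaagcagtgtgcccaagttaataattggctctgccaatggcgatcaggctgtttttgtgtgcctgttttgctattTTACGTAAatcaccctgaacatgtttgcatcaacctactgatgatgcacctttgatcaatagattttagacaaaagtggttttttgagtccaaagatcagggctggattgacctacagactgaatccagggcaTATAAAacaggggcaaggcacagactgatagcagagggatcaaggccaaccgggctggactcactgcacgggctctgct

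TTACGTAA, searched on both strands, was in 0.119% of the 32851 promoter windows of the table and TATAAA in 8.32%. Both motifs were chosen after the data were seen, and the match describes the sequence only. Of 15 tested genes of glucose output, G6pc was the only one called, and without overlap replicate 2 there were 2 more, both lower. Pygl, liver glycogen phosphorylase, stood at −0.59 (edgeR adjusted p = 0.0616) and Pcx, pyruvate carboxylase, at −0.51 (0.0966), while Gckr, the glucokinase regulator, stood at −0.31 (0.207). Pck1, which makes phosphoenolpyruvate for gluconeogenesis, was at 832, 1024, 1317 and 1335 CPM in the sustained and 1877, 1166, 1386 and 1073 CPM in the overlap libraries. The groups overlapped, with a log2 difference of 0.29 (adjusted p = 0.557).

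**Figure D2:**
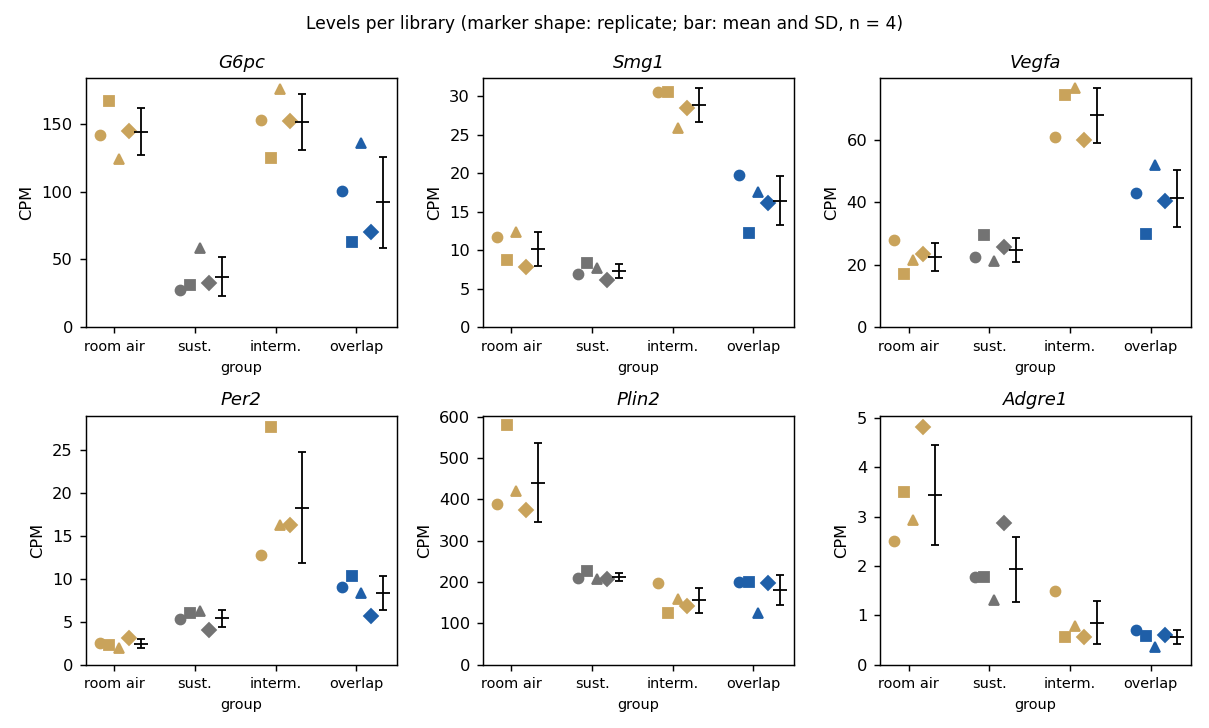
CPM of 6 genes in the 16 libraries by group, with the mean and SD of each group (n = 4) beside the points and marker shape giving the replicate number. G6pc, Smg1 and Vegfa are higher in each overlap than in each sustained library and Adgre1 is lower, Plin2 is lower by a narrow margin, and Per2 overlaps.

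Smg1 had the lowest adjusted p. It encodes the kinase that phosphorylates UPF1 in nonsense-mediated decay, the pathway that destroys transcripts with premature stop codons. Its level was 6.90, 8.34, 7.64 and 6.2 CPM in the sustained and 19.8, 12.3, 17.6 and 16.2 CPM in the overlap libraries. The groups were well apart, with replicate 2 the lowest of the overlap libraries. The log2 change was 1.18 (SE 0.17, edgeR adjusted p = 0.0109). It kept its call in 12 of the 16 fits that each left out 1 library, more than any of the other 23 genes. The change was 0.67 with offsets for length and GC content (adjusted p = 0.0574). Smg1 was the only called member of 14 tested genes of the decay pathway. Upf3b stood at 0.75 (adjusted p = 0.0797), Casc3 at 0.53 (0.117) and Upf2 at 0.58 (0.179), and the median of the list was 0.21 against 0.02 over all genes tested.

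Several of the genes that rose regulate chromatin and transcription. Kmt2a, a methyltransferase of histone H3 lysine 4, was at 0.71, 1.28, 1.12 and 0.91 CPM in the sustained and 4.29, 2.31, 4.11 and 1.74 CPM in the overlap libraries. Its log2 change was 1.61 (SE 0.32, edgeR adjusted p = 0.0466). Kdm7a, a histone demethylase of the oxygen-dependent JmjC family, was at 3.63, 3.0, 4.31 and 3.61 CPM in the sustained and 9.72, 5.04, 9.17 and 7.43 CPM in the overlap libraries, a change of 1.10 (SE 0.22, adjusted p = 0.0495). For both genes each overlap library exceeded each sustained library. Spen, an RNA-binding corepressor, rose by 2.10 and Lcor, a corepressor of nuclear receptors, by 2.03, from sustained means of 0.55 and 0.49 CPM. Ccnt2, a cyclin subunit of the elongation factor P-TEFb, rose by 1.03, Nfat5, the transcription factor of the response to osmotic stress, by 1.41, and Mdm4, a partner of MDM2 that restrains p53, by 1.27.

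The wider lists of these families leaned the same way, though few of their members were called. Of 17 tested histone methyltransferases of the KMT2, SETD and NSD kind, Kmt2a was called, 13 were higher at an unadjusted p under 0.05 (background 11% of genes) and 8 had no overlap between the groups (background 5.23%). Kmt2c stood at 0.93 (adjusted p = 0.0524), Setd5 at 0.72 (0.0556) and Nsd1 at 0.84 (0.0608), and the median of the list was 0.77. DESeq2 called 9 of the 17 higher (background 3.24%) and voom 8 (background 3.83%). Of 16 tested oxygen-dependent demethylases, which need oxygen, iron and 2-oxoglutarate to remove methyl groups from histones or DNA, Kdm7a was called and 9 were higher unadjusted. The DNA demethylases Tet2 and Tet3 stood at 1.23 (adjusted p = 0.0524) and 0.83 (0.116) and the histone demethylase Kdm6b at 1.19 (0.0524), with a list median of 0.48. Without overlap replicate 2, 11 of the methyltransferases and 8 of the demethylases were called, beside 843 called higher over all genes tested in that fit. Their medians were 0.38 and 0.26 under the length and GC offsets, and 0.30 and 0.21 once the ribosomal covariate was added.

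Factors of splicing came next. Luc7l2, a partner of the U1 particle that recognises the start of an intron, was at 12.0, 17, 15.1 and 11.8 CPM in the sustained and 47.9, 18.4, 39.9 and 28.1 CPM in the overlap libraries. Its change was 1.26 (SE 0.24, edgeR adjusted p = 0.0466), and overlap replicate 2 lay just above the sustained range. Srsf11, an SR protein, was at 15.6, 15.3, 17.7 and 12.6 CPM against 31.5, 19.95, 29.7 and 23.5 CPM, a change of 0.77 (SE 0.15, adjusted p = 0.0466). Ccnl1, cyclin L1, which partners kinases of transcription and splicing, rose by 1.41. Of 26 tested SR proteins, CLK kinases and their partners, 2 were called (Luc7l2 and Srsf11), 20 were higher and 0 lower at an unadjusted p under 0.05 (background 11% and 9.42%), and 12 were called by DESeq2 (3.24%) and 13 by voom (3.83%). All 26 had a positive log2 difference, where 51.9% of all genes did, and the median was 0.49. Son, a scaffold of nuclear speckles, stood at 0.70 (adjusted p = 0.0554) and Tra2a at 0.85 (0.0554). Without overlap replicate 2, 16 of the 26 were called, and the median was 0.34 under the length and GC offsets and 0.25 with the ribosomal covariate.

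RNAs that stay in the nucleus were measured for comparison. None of 7 tested was called by edgeR, 6 were higher unadjusted (background 11%), DESeq2 called 6 (3.24%) and voom 3 (3.83%), and the median difference was 1.17. It was 0.75 under the length and GC offsets and 0.40 with the ribosomal covariate, and without overlap replicate 2, 5 of the 7 were called. Among them are protein-coding genes whose transcripts are known to be held in hepatocyte nuclei. Nlrp6 was at 15.8, 21.2, 16.3 and 19.1 CPM in the sustained and 58.2, 25.7, 52.0 and 28.0 CPM in the overlap libraries (1.17, adjusted p = 0.0556), and Mlxipl, which encodes the glucose-sensing factor ChREBP, stood at 1.00 (0.0665). The long noncoding RNAs Kcnq1ot1 and Neat1 stood at 1.48 (0.0696) and 1.25 (0.109). Nlrp6 was higher in each overlap library, while Mlxipl was not: its level in overlap replicate 2 lay inside the sustained range.

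The remaining genes that rose had other roles. Wdfy1, an endosomal adaptor, rose by 1.47, Mapk8ip3, a scaffold that links kinases of the JNK pathway to kinesin transport, by 1.27, and Epb41, the membrane skeleton protein 4.1, by 0.80. Fam193b rose by 1.79 and Als2cl by 1.26. The predicted RNAs Gm12840, Gm47031 and Gm4673 rose by 1.52, 1.36 and 1.27, and their values are uncertain: 91.8% of the 50-base words of Gm47031 and 45.8% of those of Gm12840 also occur in transcripts of other genes, and Gm4673 is antisense to Lsr, from which it cannot be told apart because strand is not given. Part of the exons of Mapk8ip3 (20.4%) and Luc7l2 (18.9%) also lies within other genes.

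Of the 4 genes that fell, Rpl9 changed most. Rpl9, a protein of the large ribosomal subunit, was at 429.9, 308.4, 456 and 438 CPM in the sustained and 148, 239, 158 and 212 CPM in the overlap libraries. The groups did not overlap, and the log2 change was −1.11 (SE 0.22, edgeR adjusted p = 0.0466). Rdh7, a retinol dehydrogenase, was at 1478, 1322.5, 1536 and 1613 CPM in the sustained and 854, 1048, 766 and 828 CPM in the overlap libraries, a change of −0.77 (SE 0.14, adjusted p = 0.0382). Usf1, a transcription factor that binds E-boxes of glucose-responsive genes, was at 25.2, 24.3, 25.3 and 25.5 CPM against 16.4, 19.5, 13.3 and 15.96 CPM, a change of −0.61 (adjusted p = 0.0466). Its sustained libraries were nearly equal and each overlap library lay below them. Drg1, a GTP-binding protein linked to translation, fell by 0.63 on the log2 scale (adjusted p = 0.0382).

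**Figure D3:**
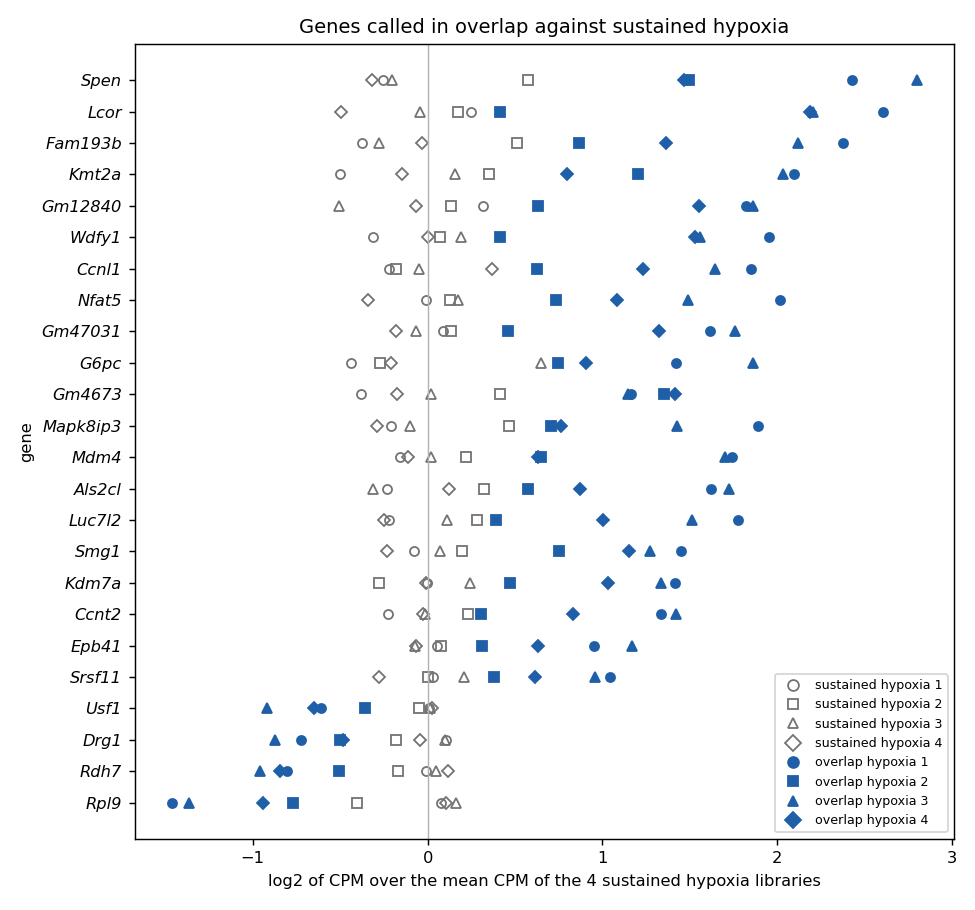
The 24 called genes, ordered by log2 change, with each library's CPM relative to the mean of the 4 sustained libraries on a log2 axis (open grey, sustained; filled blue, overlap; marker shape, replicate number). In 16 of the 20 genes that rose the overlap library nearest to the sustained libraries is replicate 2.

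The overlap libraries were ordered alike across these genes. Of the 20 that rose, the lowest overlap library was replicate 2 in 16, replicate 4 in 3 and replicate 3 in 1, and the highest was replicate 1 in 12, replicate 3 in 7 and replicate 4 in 1. Of the 4 that fell, replicate 2 was the highest overlap library in 3. Replicates 1 and 3 also had the highest mitochondrial shares and the highest length correlations, and replicate 2 the lowest of both and the lowest ribosomal RNA share. The part of these shares in the gene changes was not tested beyond the covariate and offset fits above.

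The genes that rose were long. Their median exon length was 10799 bases (10798.5), against 4032 over all genes tested, and 17 of the 20 were longer than that median. Across 10 bins of all tested genes by exon length, the median log2 difference went from −0.20 in the shortest (107 to 1361 bases) to 0.30 in the longest (9515 to 123179 bases), and the longest bin held 11 of the 20. Groups did not overlap, with overlap hypoxia higher, in 188 genes of the longest bin and 33 of the shortest, and with it lower in 14 and 118. G6pc (2414 bases) was among the shorter genes, and its change was 1.47 with the offsets for length and GC content, while that of Kmt2a went from 1.61 to 1.23 and that of Smg1 from 1.18 to 0.67. Across the 14553 genes, which are not independent replicates, the Spearman correlation between length and log2 difference was 0.34.

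Transcripts of the mitochondrial genome encode core subunits of the respiratory chain, and none of 13 was called by edgeR. Of them 12 were higher at an unadjusted p under 0.05 (background 11%), DESeq2 called 8 (3.24%) and voom 3 (3.83%), 10 had no overlap between the groups (5.23%) and the median difference was 1.34. It was 0.63 with the ribosomal covariate, which itself counts mitochondrially encoded ribosomal RNA, and 1.47 under the length and GC offsets. When overlap replicate 2 was left out, 6 of the 13 were called. The level of mt-Co1, a catalytic subunit of cytochrome oxidase, was 5436, 4280.0, 5109.7 and 6349.8 CPM in the sustained and 23483, 8175, 33073 and 12672 CPM in the overlap libraries (1.87, edgeR adjusted p = 0.0554). All overlap libraries were above all sustained ones, most in replicates 1 and 3. mt-Co1 shares 51.1% of its 50-base words with other genes. mt-Nd5 stood at 2.09 (0.0722), mt-Atp8 at 1.88 (0.0671) and mt-Nd1 at 1.41 (0.0797). Respiratory chain subunits encoded in the nucleus lay the other way. Of 32 tested, none was called, and 21 were lower and 0 higher at an unadjusted p under 0.05 (background 9.42% lower). DESeq2 called 8 lower (background 2.92%) and voom 13 (background 4.58%), and the median was −0.35. With overlap replicate 2 left out, 10 were called lower. Their list's median was −0.21 under the length and GC offsets and −0.24 with the ribosomal covariate. Ndufb8 of complex I stood at −0.68 (adjusted p = 0.0665), Cyc1, cytochrome c1, at −0.53 (0.0671) and Sdhc of complex II at −0.52 (0.0687).

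Short, abundant transcripts of protein synthesis and breakdown also lay lower. Of 28 tested ribosomal protein genes of this list, which does not hold Rpl9, none was called, 14 were lower (background 9.42%) and 1 higher unadjusted, DESeq2 called 8 lower (2.92%) and 1 higher, and the median was −0.34. It was −0.17 under the length and GC offsets and −0.19 with the ribosomal covariate. Rps3 was at 479.9, 387, 535 and 534 CPM in the sustained and 237, 338.7, 235 and 304 CPM in the overlap libraries (−0.80, edgeR adjusted p = 0.0540), and Rps9 and Rps14 stood at −0.74 (0.0608) and −0.76 (0.0608). Rpl5 went against the list at 0.52 (0.0696), and 48.9% of its words occur in other genes. Of 25 proteasome subunits none was called by edgeR, 11 were lower unadjusted (9.42%), and DESeq2 called 2 (2.92%) and voom 6 (4.58%). The median was −0.29, with Psmb5 at −0.58 (0.0616) and Psmb1 at −0.52 (0.0665). The proteasome median was −0.19 and −0.17 in those fits. Without overlap replicate 2, 10 ribosomal protein genes and 8 proteasome subunits were called lower.

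**Figure D4:**
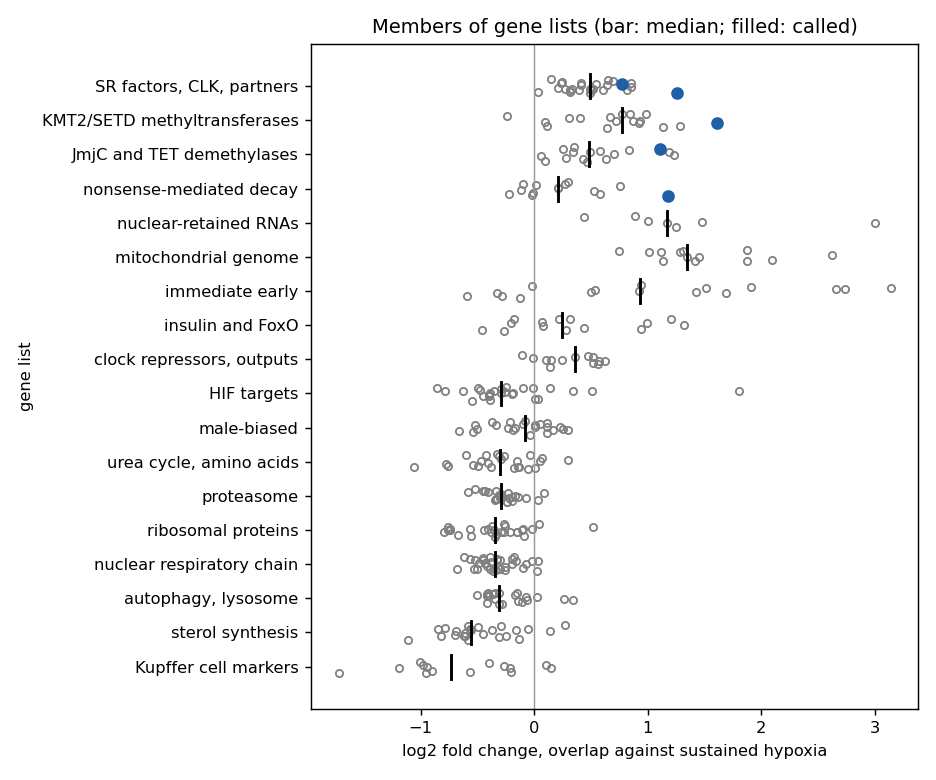
Log2 differences between overlap and sustained hypoxia for the tested members of 18 gene lists. Open circles are members, filled circles called members and bars list medians, and the vertical position within a row carries no value. The medians run from −0.73 for Kupffer cell markers to 1.34 for the mitochondrial genome.

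Genes of the hypoxic response gave few differences. Vegfa, the growth factor that recruits vessels, was at 22.5, 29.7, 21.1 and 25.7 CPM in the sustained and 42.9, 29.9, 51.9 and 40.5 CPM in the overlap libraries. The groups did not overlap, but replicate 2 of overlap hypoxia was only just above replicate 2 of sustained hypoxia, and the difference of 0.73 (SE 0.17) had an edgeR adjusted p of 0.0556. Without overlap replicate 2 it was 0.87 and was called (adjusted p = 0.0047), and DESeq2 and voom called it with all 8. In the list of 17 angiogenic genes Vegfa was the only one that either tool called higher, and voom called 2 lower, Pecam1 and Cdh5. The median of that list was 0.19, and −0.01 under the length and GC offsets and 0.21 with the ribosomal covariate. Of 26 tested HIF target genes none was called by edgeR, and 1 was higher and 4 lower unadjusted (background 11% and 9.42%). DESeq2 called 2 (2.92%) and voom 4 (4.58%), all lower, and the median was −0.29. Leaving out overlap replicate 2 gave 5 called lower. The median was −0.08 with the ribosomal covariate and −0.31 under the length and GC offsets. The glycolytic enzymes Pgk1 and Tpi1 stood at −0.63 (adjusted p = 0.0718) and −0.50 (0.102) and Pfkl at −0.39 (0.168). Pfkfb4, which makes an activator of glycolysis, stood at 1.81 (0.151) on levels of at most 1.22 CPM. Of the words of Pgk1, 53.9% occur in other genes. Hmox1, haem oxygenase, stood at −0.36 (0.364).

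Genes that answer to feeding, insulin and stress spread widely between libraries. Insr, the insulin receptor, was at 26.8, 29.3, 27.7 and 27.0 CPM in the sustained and 37.8, 35.9, 39.8 and 37.1 CPM in the overlap libraries (0.44, edgeR adjusted p = 0.0608). All 4 overlap libraries, replicate 2 included, were close to each other and above the sustained ones. Igfbp1, a binding protein of insulin-like growth factors that insulin suppresses, was at 14.7, 12.95, 15.7 and 23.5 CPM against 26.0, 14.97, 101 and 26.9 CPM, so that its difference of 1.32 (adjusted p = 0.178) rested on overlap replicate 3. Of 14 tested genes of insulin and FoxO signalling none was called by edgeR, and 4 were higher unadjusted (background 11%). DESeq2 and voom each called 2 (background 3.24% and 3.83%), and the median was 0.25. Of 16 immediate early genes, which respond to stimuli within minutes, none was called by edgeR either, and 6 were higher unadjusted (11%). DESeq2 called 3 (3.24%) and voom 2 (3.83%), and the median was 0.93. Jun was at 6.47, 4.66, 4.02 and 17.6 CPM in the sustained and 34.7, 6.30, 48.2 and 34.0 CPM in the overlap libraries (1.91, adjusted p = 0.106). Its highest sustained library was replicate 4 and its lowest overlap library replicate 2, as was also so for Zfp36 (1.43, 0.135), Egr1 (2.74, 0.156) and Nr4a1 (3.14, 0.162). With overlap replicate 2 left out, 4 of the 16 were called higher. The median was 0.38 with the ribosomal covariate and 1.04 under the length and GC offsets.

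Genes of lipid handling gave no call. Of 24 enzymes of sterol synthesis none was called by edgeR, and 7 were lower (background 9.42%) and 1 higher unadjusted. DESeq2 called 2 (2.92%) and voom 7 (4.58%) lower. The median was −0.56, or −0.10 with the ribosomal covariate and −0.59 under the length and GC offsets. Mvk, mevalonate kinase, was at 23.7, 18.0, 12.7 and 12.3 CPM in the sustained and 7.0, 15.2, 6.99 and 7.72 CPM in the overlap libraries (−0.85, edgeR adjusted p = 0.0837). Overlap replicate 2 was inside the sustained range and the other 3 below it, and without that library 13 of the 24 were called lower. Tm7sf2 stood at −0.59 (0.0958), Cyp51 at −0.62 (0.141) and Ebp at −0.37 (0.148). Fasn, fatty acid synthase, was at 387 CPM in overlap replicate 2 and 69.7 to 86.4 CPM in the other 3 overlap libraries, against 59.0 to 220 (219.9) CPM in the sustained group. Its difference of 0.09 (adjusted p = 0.952) was −0.91 without that library. Hmgcs1 stood at −0.25 (0.824) and Cyp7a1, the rate-limiting enzyme of bile acid synthesis, at −0.53 (0.585). Of 30 genes of fatty acid oxidation none was called by edgeR, and 8 were lower and 1 higher unadjusted (background 9.42% and 11%). DESeq2 and voom each called only Cpt1a, and the median was −0.10. Cpt1a, which carries long-chain fatty acids into mitochondria, was at 90.0, 84.9, 68.5 and 77.5 CPM in the sustained and 112, 98.4, 135 and 122 CPM in the overlap libraries (0.54, adjusted p = 0.0694).

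Products that hepatocytes secrete and enzymes of nitrogen handling lay slightly lower. Of 25 complement and coagulation genes none was called by edgeR, and 8 were lower unadjusted (background 9.42%). DESeq2 and voom each called 6 (2.92% and 4.58%), and 9 had no overlap between the groups (background 5.58%), with a median of −0.25. F10, coagulation factor X, was at 455, 460 (459.8), 531 and 539 CPM in the sustained and 289, 414, 326 and 322 CPM in the overlap libraries (−0.55, edgeR adjusted p = 0.0556). All overlap libraries were below all sustained ones, as for Cfi (−0.52, 0.0616) and C8g (−0.51, 0.0739). Leaving out overlap replicate 2 gave 6 of the 25 called lower. Of 24 genes of the urea cycle and amino acid breakdown none was called, and 10 were lower unadjusted (9.42%). DESeq2 called 6 (2.92%) and voom 8 (4.58%), and the median was −0.30. Gnmt, which uses up methyl groups from S-adenosylmethionine, stood at −1.06 (0.0819), Ass1 of the urea cycle at −0.75 (0.0691) and Hgd of tyrosine breakdown at −0.60 (0.0671). With overlap replicate 2 left out, 5 of the 24 were called lower. The median was −0.12 with the ribosomal covariate and −0.31 under the length and GC offsets. Of 21 genes of autophagy and lysosomes none was called by edgeR, and 11 were lower unadjusted (background 9.42%). DESeq2 called 4 (2.92%) and voom 8 (4.58%). The median was −0.31, or −0.15 with the ribosomal covariate and −0.26 under the length and GC offsets. Leaving out overlap replicate 2 gave 6 of the 21 called lower.

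Markers of Kupffer cells lay lower. In whole liver, fewer cells of a type and less RNA per cell cannot be told apart. The summed level of the 14 markers was 133 to 203 CPM in the sustained and 94.1 to 116 CPM in the overlap libraries, without overlap between the groups. None was called by edgeR, and 8 were lower unadjusted (background 9.42%). DESeq2 called 6 (2.92%) and voom 3 (4.58%), 8 had no overlap (5.58%) and the median was −0.73. Adgre1, the macrophage surface protein F4/80, was at 1.78, 1.79, 1.3 and 2.87 CPM in the sustained and 0.70, 0.58, 0.35 and 0.60 CPM in the overlap libraries (−1.72, edgeR adjusted p = 0.0517). Cd5l, a scavenger protein of tissue macrophages, was at 18.2, 14.7, 17.8 and 28.0 CPM against 10.8, 10.5, 11.1 and 9.80 CPM (−0.90, 0.0671). Overlap replicate 2 was with the other overlap libraries in both genes, as for Insr. In most of the called genes that rose it was the overlap library nearest to the sustained group. C1qa, a complement gene, stood at −0.98 (0.0706), and Folr2 at −1.01 (0.0696), with 52.6% of its words in other genes. Without overlap replicate 2, 3 of the 14 were called lower, beside 704 over all genes tested in that fit. The list's median was −0.58 under the length and GC offsets and −0.52 with the ribosomal covariate. Among 14 endothelial markers none was called by edgeR, 3 were lower unadjusted (9.42%), and DESeq2 called 1 (2.92%) and voom 2 (4.58%). Clec4g, a lectin of sinusoidal endothelium, was at 27.7, 37.1, 28.7 and 29.5 CPM against 10.9, 22.97, 18.8 and 14.1 CPM (−0.89, 0.0517), with no overlap. Markers of monocytes and dendritic cells summed to 80.0 to 196 CPM in the sustained and 61.1 to 86.6 CPM in the overlap libraries, those of stellate cells to 137 to 236 and 101 to 237 CPM, and globin and other red cell genes to 418 to 2078 and 219 to 1336 CPM. B cell markers summed to 7.79 to 28.2 and 4.37 to 12.0 CPM, and those of T and NK cells to 1.73 to 3.94 and 1.17 to 2.27 CPM. The medians of the monocyte, B cell and T and NK lists were −0.53, −0.65 and −0.86, and −0.15, −0.30 and 0.19 with the ribosomal covariate. Under the length and GC offsets they were −0.41, −0.49 and −0.90. None of the monocyte, stellate and red cell lists had a called member in edgeR, and at an unadjusted p under 0.05 they held 2, 0 and 1 lower and 0 higher. The B cell and the T and NK list had none either, each with 1 lower unadjusted, and DESeq2 called 1 B cell marker.

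Adding an intermittent exposure without sustained hypoxia can be read from intermittent hypoxia against room air. The labels do not say whether that exposure was the same as the intermittent part of overlap hypoxia. The group means of the steps come from different libraries, but all 16 set the spread used in both tests: overlap against sustained hypoxia had 1 call without intermittent replicate 1 and 95 without room air replicate 4. There edgeR called 5404 genes (37.1%), and 1336 with the ribosomal RNA share as a covariate. Across the 14553 genes, which are not independent replicates, the log2 differences of both steps correlated with a Pearson coefficient of 0.58 and a Spearman coefficient of 0.60. All 24 genes had the same sign in both steps, and 21 were also called in intermittent hypoxia against room air, which is 87.5% of the 24 and 0.389% of the 5404. The exceptions were G6pc (0.07 against room air, adjusted p = 0.845), Kdm7a (0.28, 0.329) and Lcor (0.79, 0.106). Genes called higher in intermittent hypoxia against room air had a median of 1.11 there, on which they were chosen, and of 0.44 in overlap against sustained hypoxia, and those called lower had −0.72 and −0.29. In all 24 genes the overlap mean lay between the sustained and the intermittent mean. The 24 were chosen on the difference of the sustained and overlap groups, which fixed that side of the order. The share of all genes with this order was not computed. For Fam193b the means were 4.56 CPM in room air, 5.75 in sustained, 20.03 in overlap and 43.7 in intermittent hypoxia, and for Rpl9 they were 410.0, 408, 190 (189.5) and 111 CPM. For the ribosomal RNA and mitochondrial shares the overlap mean lay between the sustained and intermittent means, and the room air mean lay between sustained and overlap hypoxia. Mean ribosomal RNA was 5.22% in room air, 2.16% in sustained, 9.59% in overlap and 25.2% in intermittent hypoxia. The mean mitochondrial share was 2.11%, 1.58%, 4.37% and 8.44% in these groups. With the ribosomal covariate the calls went from 24 to 0 in overlap against sustained hypoxia, beside the fall to 1336 given above. As that covariate also counts mitochondrially encoded ribosomal RNA, it is not separate from the mitochondrial share, whose own part was not tested.

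**Figure D5:**
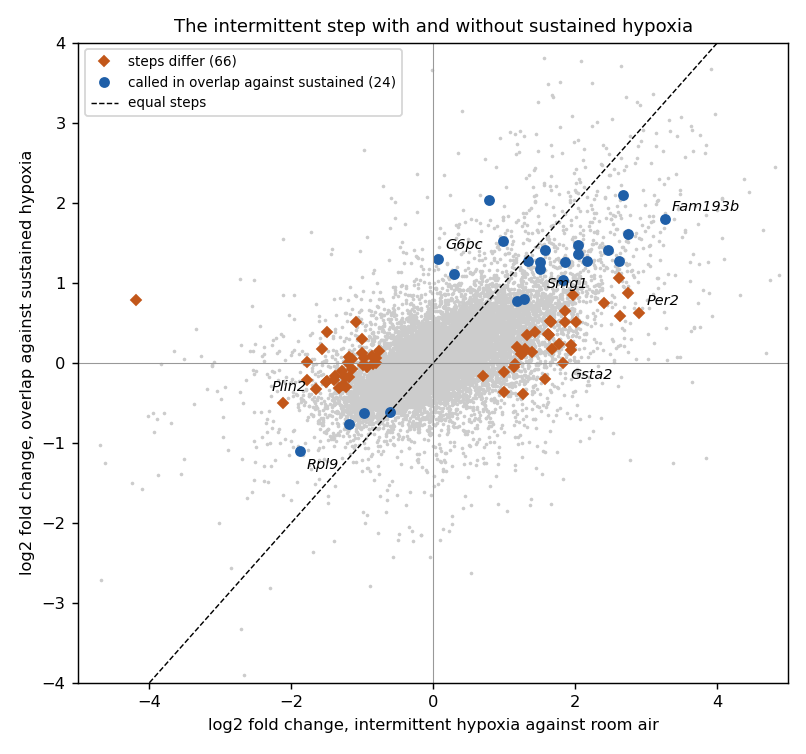
Log2 change of each tested gene in intermittent hypoxia against room air (horizontal) and in overlap against sustained hypoxia (vertical). Blue circles are the 24 called genes, orange diamonds genes whose steps differed, and the dashed line marks equal steps. Outside the axes lie 54 genes, 2 of them among those whose steps differed. Most orange diamonds lie near 0 on the vertical axis, where many other genes also lie.

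Whether the step itself differed was tested as an interaction, the log2 difference of overlap and sustained hypoxia minus that of intermittent hypoxia and room air. EdgeR called 66 genes (0.454%), 32 (0.22%) with a positive and 34 (0.234%) with a negative difference of the steps. All 66 were also called in intermittent hypoxia against room air (background 37.1%) and had a smaller step in overlap against sustained hypoxia. As the step from room air to intermittent hypoxia is part of the tested difference, those calls are not separate from the choice of the 66. In 51 of the 66 the step in overlap against sustained hypoxia was under 0.5 in size on the log2 scale. Steps of that size were common. Among all tested genes with 4033 to 4829 exon bases, for example, the quartiles were −0.18 and 0.31. The share over all genes was not computed. None of the 24 genes was among the 66, the lowest adjusted p being 0.0663 for Mapk8ip3, and 2544 genes had an unadjusted p under 0.05. DESeq2 called 532 and voom 272. The count was 2 without overlap replicate 4, sustained replicate 1, room air replicate 2 or intermittent replicate 3, 3 to 5 without sustained replicate 2 or 3, room air replicate 3 or intermittent replicate 2, and 241 without overlap replicate 2.

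Genes of the circadian clock were among the 66. The clock is a feedback loop in which PER and CRY proteins repress their own activators, and Dbp and Tef encode output factors that carry its rhythm to liver enzymes. Per2 was at 5.34, 6.06, 6.23 and 4.01 CPM in the sustained and 9.02, 10.3, 8.39 and 5.64 CPM in the overlap libraries (0.62, edgeR adjusted p = 0.137), with overlap replicate 4 inside the sustained range. Against that, its mean was 2.45 CPM in room air and 18.3 CPM in intermittent hypoxia, and the difference of the steps was −2.28 (SE 0.33, adjusted p = 0.00714). Tef was at 71.8, 74.8, 68.2 and 45.8 CPM in the sustained and 69.5, 74.6, 75.3 and 67.3 CPM in the overlap libraries, nearly the same levels (0.14), and went from 41.4 to 109 CPM from room air to intermittent hypoxia (difference of the steps −1.25, adjusted p = 0.0373). Dbp stood at −0.11 and 0.99 in the steps, a difference of −1.10 (0.0441). Of the 13 tested clock repressors and outputs, these 3 differed (background 0.234%) between the steps. In overlap against sustained hypoxia none of the 13 was called by edgeR or DESeq2, voom called 2 (3.83%) and 4 were higher unadjusted (11%). The median was 0.36, with Bhlhe40 at 0.57 (0.102) and Nr1d2 at 0.52 (0.105). Per1 stood at 0.14 (0.824) and the activator Arntl at 0.84 (0.662), the latter on levels of at most 0.16 CPM.

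The clock acts on its targets through the E-box CACGTG, which was searched on both strands in the RefSeq promoter windows (GRCm38.p6). It was in 6 of 13 windows of 11 of the listed genes and in 7.15% of all windows of the table. These letters were not in the windows of Dbp, whose steps also differed, which says nothing of other sequence there. Tef has them at each of 2 start sites, shown with 40 bases around it and the E-box in capitals, the upper one at chr15:81802529-81802568 and the lower at chr15:81811259-81811298, both on the plus strand.

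Tef, first start: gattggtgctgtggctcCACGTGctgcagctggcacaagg
Tef, second start: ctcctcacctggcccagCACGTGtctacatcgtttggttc

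Other genes whose steps differed act in metabolism. Plin2, the coat protein of lipid droplets, was at 209, 226, 208 and 206 CPM in the sustained and 199.99, 201, 126 and 197 CPM in the overlap libraries (−0.23, edgeR adjusted p = 0.483), so each overlap library was below each sustained library, by little except in replicate 3. From room air to intermittent hypoxia its mean went from 440.3 to 156 CPM, and the steps differed by 1.27 (0.0373). Room air was thus the group that stood out, as the sustained mean was 212 CPM. Gsta2, a glutathione transferase, had means of 38.7 CPM in both the sustained and the overlap group and of 18.1 and 64.4 CPM in room air and intermittent hypoxia (−1.83, 0.00714), though 49.8% of its words occur in other genes. Aasdhppt, Dhx40 and Pllp had differences of the steps of 1.01 (0.0373), 0.89 (0.0373) and 1.57 (0.0215), each lower in intermittent hypoxia than in room air and within 0.22 of the sustained level in overlap hypoxia. Of the exon bases of Pllp, 54.2% overlap Gm45767.

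Genes that differ between male and female mouse liver follow the pattern of growth hormone release. Of 23 tested male-biased genes, 13 were called lower in intermittent hypoxia against room air (background 18.3%), with a median of −1.20. In overlap against sustained hypoxia none was called by edgeR, DESeq2 or voom, none had an unadjusted p under 0.05 and the median was −0.08, or −0.65 with the ribosomal covariate and 0.04 under the length and GC offsets. The test of the difference called Nudt7, a peroxisomal coenzyme A hydrolase (1.61, adjusted p = 0.0446), and Slco1a1, an organic anion transporter (1.78, 0.0487), and the other 21 were not called. The means of Slco1a1 were 281 CPM in sustained and 282 CPM in overlap hypoxia, and 301 and 87.9 CPM in room air and intermittent hypoxia. Female-biased genes, 13 tested, had 7 called higher in intermittent hypoxia against room air (background 18.9%), with a median of 1.58. Against sustained hypoxia, none had an unadjusted p under 0.05 and their median was −0.61, or 0.33 with the ribosomal covariate and −0.46 under the offsets. Their 1 call for the difference was Cux2 (−6.36, SE 1.27, edgeR adjusted p = 0.0383), on levels near 0. Its mean was 0.009 CPM in room air, 0.08 in sustained, 0.11 in overlap and 1.54 in intermittent hypoxia, so the size of that difference is uncertain. The share of major urinary protein genes was 15.9% ± 5.92 in the sustained and 15.3% ± 3.73 in the overlap libraries (SD, n = 4; exact permutation p = 0.857).

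Of the genes followed in every case, the rest did not pass. Hamp, the iron hormone hepcidin, stood at 0.21 (edgeR adjusted p = 0.777) with levels of 572 to 1198 CPM in the sustained and 633 to 1526 CPM in the overlap libraries. Cirbp, a cold-inducible RNA-binding protein, stood at −0.17 (0.814). Fgf21, a fasting hormone of the liver, stood at 0.54 (0.594) on levels of at most 1.36 CPM. For all 3 the libraries of both groups overlapped.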

How the data were processed

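RNA selection, read length, strand and annotation release: not given in the sources used here. RNA was extracted with Trizol and libraries were made with a TruSeq RNA kit, per the labels' protocols. The authors deposited RSEM expected counts per gene, with Bowtie 1.3.0 and genome GRCm38 named per the submitters' processing notes. Of nonzero values 49.3% were not whole, and the estimated counts were rounded here. edgeR 4.0.16 (R 4.3.3; filterByExpr, TMM, robust quasi-likelihood, Benjamini-Hochberg) fitted all 16 libraries with 1 coefficient per group, and tested overlap against sustained, intermittent against room air, and the difference of both. It was tested on simulated data. DESeq2 1.42.0, limma-voom (limma 3.58.1), other scalings and filters, offsets, covariates, blocking and leaving out each library were alternatives.

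The members and gene lists were chosen with earlier results of these data known. Named genes were the up to 12 called genes per direction with the largest change among those of at least 2 CPM mean and under 50% shared words, a fixed panel, up to 4 members of each list with the lowest p, and the 6 leading genes for the difference of steps. The other called genes were named after their values were seen. Shared words are 50-base stretches also found in transcripts of other genes.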

Additional observations from a re-analysis of the deposited data

Results flagged for a closer look

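A library far from the other 3 of its group was found in 9 of 104 groups checked, and chance gives about 1 in 20. In sustained hypoxia these were replicate 4 for the correlation of length and level (−0.311), replicate 2 for Aasdhppt (17.3 CPM), Plin2 (226 CPM) and Spen (0.824 CPM), and replicate 3 for G6pc (58.7 CPM). In overlap hypoxia they were replicate 3 for Igfbp1 (101 CPM) and Plin2 (126 CPM), replicate 2 for Fasn (387 CPM) and replicate 4 for Fgf21 (1.36 CPM).

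The step from sustained to overlap hypoxia differed from that from room air to intermittent hypoxia, by edgeR's test of the difference, in 8 of the named genes. The log2 difference of the steps was −2.28 for Per2, −1.83 for Gsta2, −1.25 for Tef and −1.10 for Dbp. It was 1.57 for Pllp, 1.27 for Plin2, 1.01 for Aasdhppt and 0.89 for Dhx40.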

How the results depend on the processing

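The 24 calls in overlap against sustained hypoxia became 896 with DESeq2, 1224 with limma-voom, 190 with a filter at 2 CPM, 354 with no filter, 86 with upper-quartile scaling (78 higher and 8 lower), 2 with only the compared groups, and 0 with offsets for length and GC or with the ribosomal share as covariate. Leaving out 1 library gave 0 to 1547. Intermittent against room air went from 5404 to 1336 with the ribosomal covariate and was 4292 to 5635 with 1 library left out. The 66 genes whose steps differed became 532 with DESeq2, 272 with voom, 120 at 2 CPM, 192 with no filter, and 2 to 241 with 1 library left out. The replicate block gave 126 calls (23 of the 24 among them), 5543 and 290. Deviations of same-numbered libraries correlated at −0.07 to 0.29 and those of other pairs at −0.37 to 0.13. Of 4 overlap libraries 2 correlated best with their own number. These pairs are too few to tell whether same-numbered samples share more than a number. Signs changed for these uncalled genes. Per1 was −0.029 with offsets and −0.0255 to 0.274 with 1 library left out. Fasn was −0.465 with voom, −0.172 with offsets, −0.0721 with the replicate block and −0.910 to 0.354 with 1 library left out. Cyp7a1, Dbp and Hmgcs1 were 0.0556, 0.0803 and 0.148 with the ribosomal covariate. With 1 library left out, Cirbp was −0.331 to 0.0931 and Hamp −0.0533 to 0.400. Likewise the difference between groups changed sign in genes with a count (−1242 to 394), in major urinary share (−2.72 to 1.20 percentage points) and in replication histone share (−0.00161 to 0.00057). The last pair were 1.36 and 0.00205 with ribosomal and mitochondrial counts left out of the total. The cause was not tested. Depth was lowest in overlap replicate 3, at 10940275 counts.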
